A study of Mus musculus with 21 samples.

Results

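The PEA3 factors and MAPK feedback genes described here were 10 of the 21000 genes in the deposited count table. They were the PEA3-group ETS transcription factors *Etv4* and *Etv5*, the Sprouty genes *Spry1*, *Spry2* and *Spry4*, the MAP kinase phosphatases *Dusp4*, *Dusp5* and *Dusp6*, and the Sprouty-related genes *Spred1* and *Spred2*. All 10 symbols were rows of the table. The set was chosen by pathway around the high *Etv4* level after 5-FU, which had been seen in HSCs treated once with 5-FU against HSCs treated once with PBS. That contrast and any other comparison that drew on those 6 libraries were therefore described without a test. High *Etv4* after the third round may have been known as well, so that tests on those libraries may not be independent of the choice.

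ERK, the last kinase of the RAS-RAF-MEK cascade, is switched on by growth factor and cytokine receptors and induces the genes that later restrain it. Sprouty and Spred proteins act on the upstream steps of the cascade, near RAS and RAF, whereas DUSP phosphatases remove the activating phosphates from MAP kinases. *Etv4* and *Etv5* are transcriptional targets of receptor tyrosine kinase signaling and of the repressor Capicua (CIC), and their proteins are degraded through the COP1 ubiquitin ligase. In HSCs, signaling from the receptor c-Kit runs in part through this cascade.

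RNA was sequenced from wild-type mouse bone marrow HSCs in 21 libraries, 3 in each of 7 groups. HSCs, sorted from Lineage-, Sca-1+ and c-Kit+ marrow by presence of CD150 and absence of CD48 (and, per the methods for this strain, of Flt3), came from C57BL/6 mice that were 10 weeks old at the start and received PBS or 5-FU, an antimetabolite that kills dividing cells, by intraperitoneal injection. 5-FU was given at 150 mg/kg. Injections were given 1 time or 3 times at 21-day intervals, and 3000 to 3500 cells were collected at day 6 (PBS and 5-FU) or at day 21 (5-FU only). The 7 groups were thus PBS given 1 time or 3 times at day 6, 5-FU given 1 time or 3 times at day 6, 5-FU given 1 time or 3 times at day 21, and old HSCs. The last group was fresh, untreated HSCs from animals aged 2 years. The methods describe 3 independent experiments, but which animals were pooled into a library is not given in the sources used here.

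The sort differed between groups. At day 6 after 5-FU, the c-Kit gate was widened to take in dim cells and the antibody against Mac-1 was left out of the lineage cocktail. Treatment and gate cannot be told apart in any comparison of a day 6 5-FU group with another group. The names of the 6 libraries taken at day 6 after 1 round carry a suffix in the table that the others lack and whose meaning is not stated, so that a batch, if the suffix marks one, cannot be told apart from the group wherever these libraries are set against others. The libraries held 22184885 to 38649033 counts. A count of 3 was worth between 0.0850 and 0.128 CPM (counts scaled to a common library total), depending on the library. Levels were scaled with the trimmed mean of M values (TMM) over all 21 libraries. The 11 HSC markers examined were all detected in every group, and their summed level was 3368 to 3502 CPM in HSCs at day 6 after 3 rounds of 5-FU against 4431 to 4783 CPM after 3 rounds of PBS. The summed level of 12 myeloid genes was 54.1 to 76.6 against 89.7 to 122 CPM. That of 8 erythroid genes was 1107 to 1139 against 1301 to 1540 CPM, of which *Car2* made up a mean of 1061 against 1395 CPM, while *Tfrc* stood at 43.3 against 20.4 CPM and *Epor* at 15.2 against 9.77 CPM. Their part in the results was not tested. In bulk samples, fewer cells of a type and less RNA per cell cannot be told apart.

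*Etv4* was nearly silent in PBS-treated HSCs. After 1 round of PBS, the 3 libraries held 0, 0 and 11 *Etv4* counts (0.157 ± 0.272 CPM, SD, n = 3), and after 3 rounds of PBS they held 0, 1 and 27 counts (0.330 ± 0.545 CPM). At day 6 after 1 round of 5-FU, the counts were 370, 345 and 358 (14.0 ± 1.41 CPM). At day 6 after 3 rounds of 5-FU, they were 825, 815 and 1904 (35.4 ± 16.1 CPM). All 6 day 6 5-FU libraries thus lay above every other library, and the 3 libraries after 3 rounds, at 25.4, 27.0 and 53.9 CPM, lay above the 3 after 1 round, at 12.8 to 15.5 CPM, a difference that was not tested. By day 21, the counts had returned to 1, 0 and 32 after 1 round and stood at 75, 38 and 28 after 3 rounds. Old HSCs had 1, 41 and 21 counts, which overlapped the PBS and both day 21 groups.

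**Figure D1:**
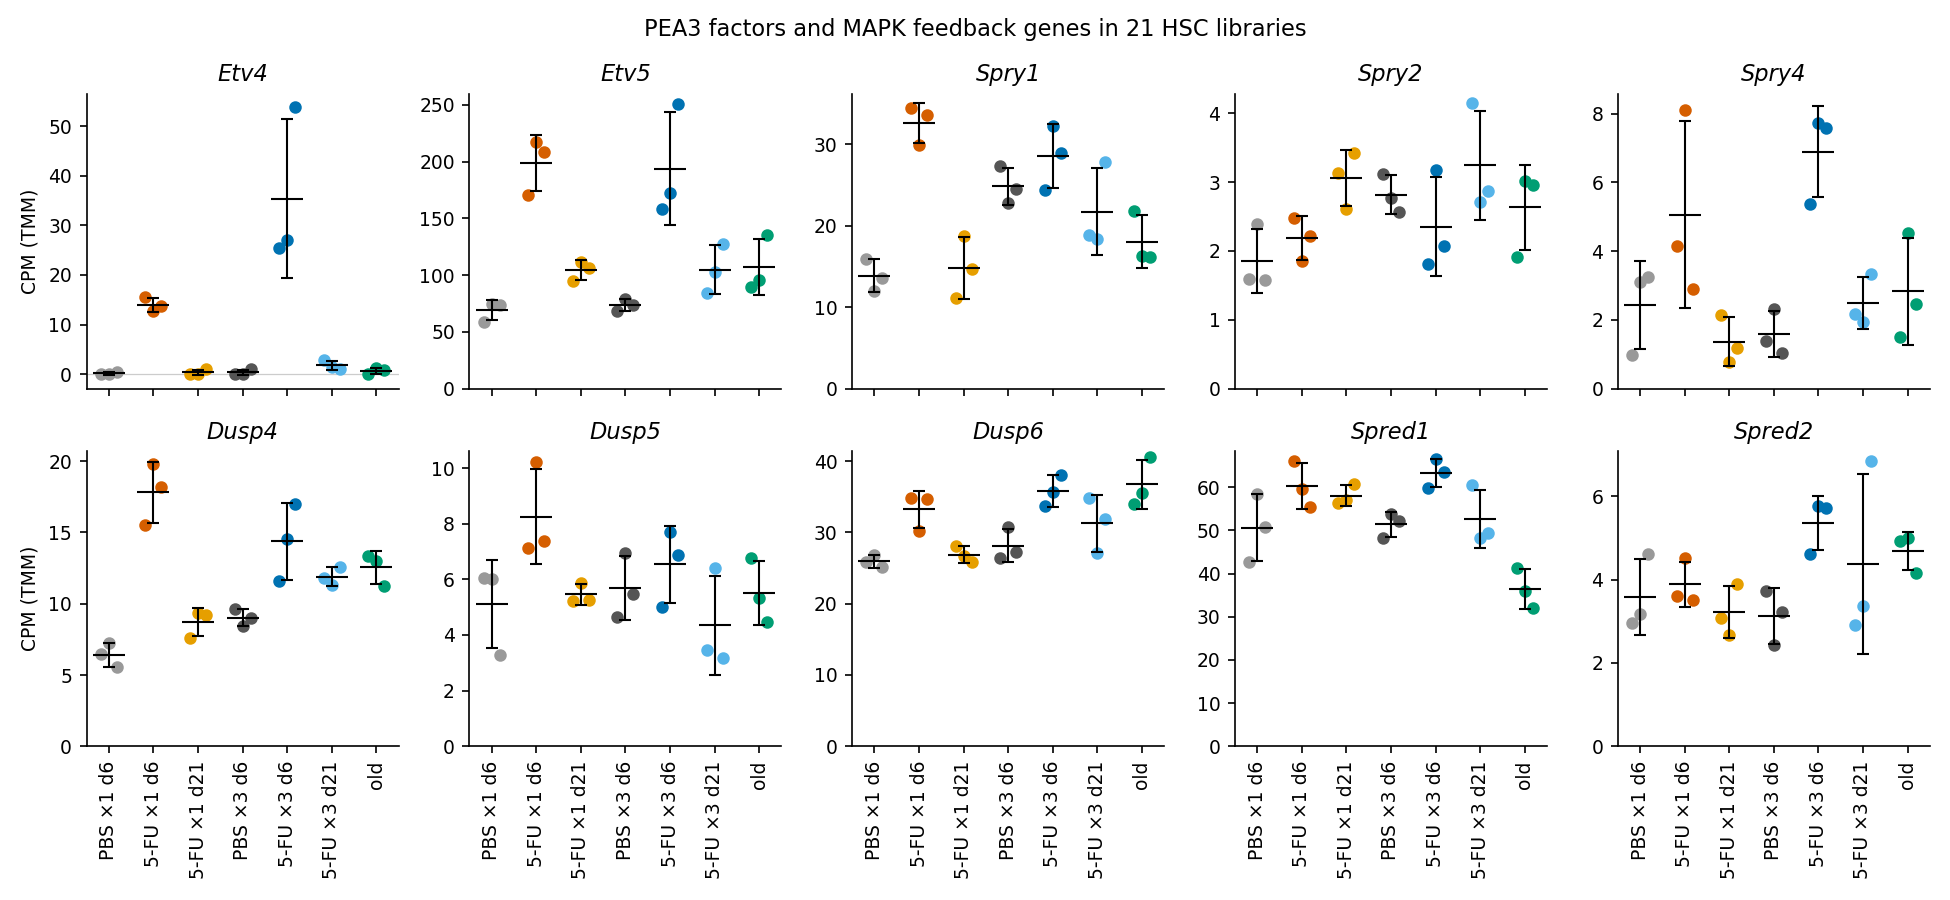
TMM-scaled CPM of the 10 genes in each of the 21 libraries (points), with the group mean and SD (bars, n = 3) and linear axes from 0 CPM in every panel but *Etv4*, whose axis starts below 0 to show the error bars. *Etv4* stood at 12.8 CPM or more in the 6 libraries taken at day 6 after 5-FU and at 2.80 CPM or less in the other 15.

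*Etv5* was detected at 58.8 CPM or more in every library. It stood at 68.5, 78.6 and 73.2 CPM after 3 rounds of PBS and at 158, 172 and 250 CPM at day 6 after 3 rounds of 5-FU. The groups did not overlap. After 1 round, its mean was 69.2 ± 9.04 CPM with PBS and 199 ± 24.7 CPM at day 6 after 5-FU. At day 21, it was 104 ± 8.65 CPM after 1 round and 105 ± 21.7 CPM after 3 rounds, and in old HSCs it was 107 ± 24.6 CPM. The lowest day 21 library, at 83.8 CPM, was above the highest PBS library, at 78.6 CPM.

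Per kb of the longest annotated transcript, *Etv5* had the highest level of the 10 genes after 3 rounds of PBS, at 18.5 ± 1.27 CPM per kb, and *Etv4* the lowest, at 0.138 ± 0.228 CPM per kb. At day 6 after 3 rounds of 5-FU, *Etv5* again led at 48.7 ± 12.5 CPM per kb, while *Etv4* had moved to the second place at 14.8 ± 6.70 CPM per kb, ahead of *Dusp6* at 12.8 ± 0.793 CPM per kb. *Etv4* and *Dusp6* did not differ beyond their spread, and their order turned, at 11.4 CPM per kb each, when all annotated exons were counted in the length.

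The third round gave a test without the day 6 libraries of the first round. The genes were, however, chosen with earlier results of these data known, so that the test may not be independent of that choice. *Etv4* in particular was chosen as a gene raised by 5-FU, so that its p-values are no independent support for its rise. Between 3 rounds of 5-FU and 3 rounds of PBS at day 6, 4 of the 10 genes passed an adjusted p of 0.05 by edgeR's quasi-likelihood test, all of them higher after 5-FU, where 18.1% of the 12729 genes tested passed in either direction and 9.84% passed as higher. *Etv4* rose by a log2 fold change of 6.80 (SE 0.85, edgeR adjusted p = 0.00422). *Etv5* rose by 1.38 (SE 0.18, edgeR adjusted p = 0.00473). With *Spry4* and *Dusp4*, described below, these made up the genes called. The median log2 fold change over the 10 genes was 0.49, against -0.01 over all genes tested. The 3 libraries of each group did not overlap, with 5-FU higher, for 7 of the 10 genes, against 22.5% of all genes. DESeq2 called 7 of the 10, adding *Dusp6*, *Spred1* and *Spred2*, where it called 26.4% of all genes. Without a normalization factor, the share of all calls that were higher was 35.6% in place of 54.2%, and *Etv4*, *Etv5* and *Spry4* were still called higher.

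The size of the *Etv4* difference rested on its low PBS counts. In the pooled counts of the 3 libraries, the ratio of 5-FU to PBS was 118 (95% interval 81.6 to 178, exact, counting error only). One PBS library, replicate 3, held 27 of the 28 PBS counts. Without it, the log2 fold change was 10.8 and the ratio was 2290 with an interval of 411 to 90464, from a single count. With each library left out in turn, the log2 fold change lay between 6.20 and 10.8.

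Among the Sprouty genes, *Spry4* rose, *Spry1* differed by less than its spread and *Spry2* stood lower on average after 3 rounds. *Spry4*, an inhibitor of growth factor signaling to RAS and RAF, had 1.38, 2.33 and 1.03 CPM after 3 rounds of PBS and 5.38, 7.71 and 7.59 CPM at day 6 after 3 rounds of 5-FU. Its log2 fold change was 2.10 (SE 0.37, edgeR adjusted p = 0.0110), and the lowest 5-FU library was above the highest PBS library. After 1 round, the same groups overlapped: *Spry4* stood at 0.964, 3.10 and 3.25 CPM with PBS and at 4.16, 8.11 and 2.91 CPM with 5-FU.

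*Spry1* had the largest difference between the PBS groups of the 9 genes kept by the filter on low counts there (0.85 on the log2 scale, a described value). It stood at 16.0, 11.9 and 13.6 CPM after 1 round of PBS and at 27.3, 22.8 and 24.5 CPM after 3 rounds of PBS, with no overlap. At day 6 after 5-FU, it was at 34.4, 29.9 and 33.6 CPM after 1 round and at 24.5, 32.3 and 28.9 CPM after 3 rounds. The difference between 5-FU and PBS was thus 1.23 on the log2 scale after 1 round, a described value, and 0.18 (SE 0.12, edgeR adjusted p = 0.365) after 3 rounds, with overlapping groups in the latter. The difference between these values was not tested. About 24.4% of the exonic bases of *Spry1* are shared with the antisense gene *Gm42922*, and the library kit did not keep the strand, so reads of these genes cannot be told apart there. *Spry2* had 1.81 to 3.18 CPM at day 6 after 3 rounds of 5-FU and 2.56 to 3.12 CPM after 3 rounds of PBS (log2 fold change -0.28, SE 0.36, edgeR adjusted p = 0.633).

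Of the phosphatase genes, *Dusp4* passed the test and *Dusp5* and *Dusp6* did not. *Dusp4* encodes a nuclear MAP kinase phosphatase. Its level was 9.65, 8.44 and 8.99 CPM after 3 rounds of PBS and 11.6, 14.5 and 17.0 CPM at day 6 after 3 rounds of 5-FU, without overlap. It rose by 0.65 on the log2 scale (SE 0.16, edgeR adjusted p = 0.0318). This was the least stable call: the adjusted p was 0.0506 without a normalization factor, and with 1 library left out it was between 0.0646 and 0.0935 in all but the fit without replicate 1 of the 5-FU group. With the replicate numbers as a block it was 0.0688. *Dusp6*, which encodes the cytoplasmic phosphatase specific for ERK, had 26.4, 30.7 and 27.2 CPM with PBS and 33.7, 35.7 and 38.1 CPM with 5-FU after 3 rounds. Its groups did not overlap, but the log2 fold change of 0.33 (SE 0.094) missed the threshold in edgeR (adjusted p = 0.0532) and passed it in DESeq2 (adjusted p = 0.0275). *Dusp5*, the inducible nuclear phosphatase of ERK, overlapped between the groups (5.01 to 7.71 against 4.66 to 6.95 CPM, edgeR adjusted p = 0.657), and 22.1% of its exonic bases are shared with the antisense gene *AC137853.2*.

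The Spred genes encode membrane-bound inhibitors that bring neurofibromin to RAS. *Spred1* stood at 48.3, 53.8 and 52.1 CPM after 3 rounds of PBS and at 59.9, 66.4 and 63.6 CPM at day 6 after 3 rounds of 5-FU (log2 fold change 0.28, SE 0.083, edgeR adjusted p = 0.0607, DESeq2 adjusted p = 0.0102). *Spred2* stood at 3.73, 2.42 and 3.24 CPM and at 4.61, 5.76 and 5.72 CPM (log2 fold change 0.76, SE 0.26, edgeR adjusted p = 0.0920, DESeq2 adjusted p = 0.0317). For both genes all 3 libraries after 5-FU were above all 3 after PBS.

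**Figure D2:**
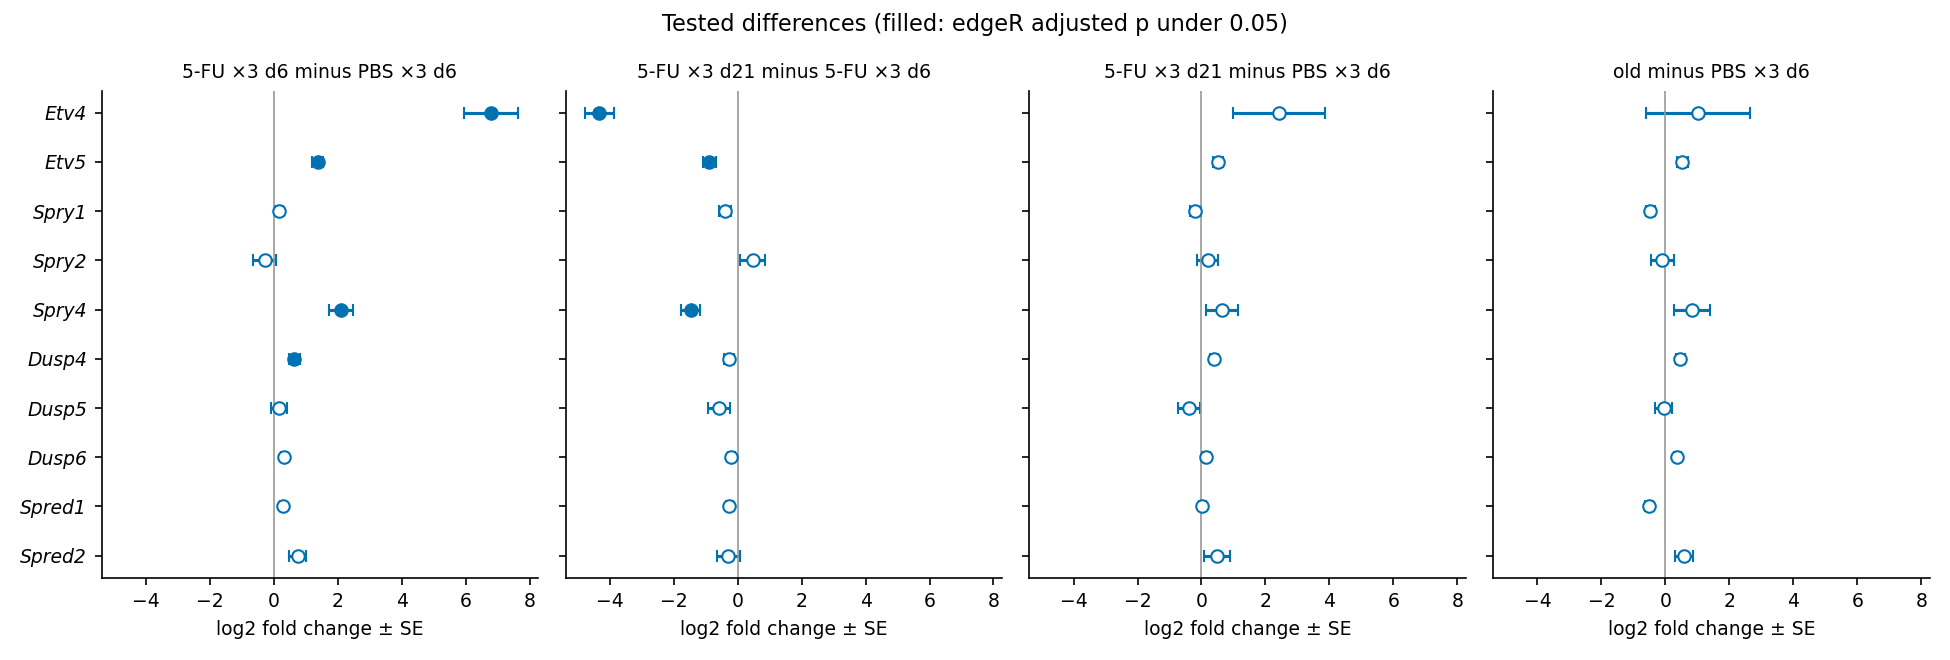
Log2 fold changes (points) with SE (bars) of the 10 genes in 4 of the tested comparisons, with filled points for an edgeR adjusted p under 0.05. *Etv4*, *Etv5*, *Spry4* and *Dusp4* are filled for 5-FU against PBS at day 6 after 3 rounds, and *Etv4*, *Etv5* and *Spry4* are filled, below 0, for day 21 against day 6.

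After 1 round, where the set was chosen, the differences between 5-FU and PBS at day 6 are values only. The log2 fold changes were 6.53 for *Etv4*, 1.51 for *Etv5*, 1.46 for *Dusp4*, 1.23 for *Spry1*, 1.05 for *Spry4* and 0.68 for *Dusp5*. The other four genes had values from 0.11 to 0.35. The 5-FU libraries were all above the PBS libraries for 6 of the 10 genes, in a contrast in which 24.0% of all genes showed this. The value for *Etv4* ran from 5.93 to 11.5 with 1 library left out, the highest without the PBS library that held all 11 counts. The PBS groups themselves, with 3 rounds against 1, did not overlap with the former higher for 3 of the 9 genes kept by the filter on low counts, *Spry1*, *Spry2* and *Dusp4*, against 9.97% of all genes. *Dusp4* had 5.56 to 7.24 CPM after 1 round of PBS and 8.44 to 9.65 CPM after 3 rounds.

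From day 6 to day 21 after 3 rounds of 5-FU, 3 of the 10 genes fell and none rose by edgeR's test, where 19.5% of the 12553 genes tested passed in either direction and 10.8% passed as lower. Of all calls, 44.4% were higher, against 63.5% without a normalization factor. The day 6 libraries are those of the comparison with PBS, so that the limit set by the choice of *Etv4* holds here too. *Etv4* fell by 4.32 on the log2 scale (SE 0.44, edgeR adjusted p = 0.00151). *Etv5* fell by 0.88 (SE 0.21, edgeR adjusted p = 0.0277) and *Spry4* by 1.47 (SE 0.31, edgeR adjusted p = 0.0174). *Spry4* stood at 2.17, 1.94 and 3.35 CPM at day 21, below all 3 day 6 libraries. The count of 3 rested on single libraries: only *Etv4* passed without replicate 1 at day 21, without replicate 2 at day 6 or without replicate 3 at day 6, and *Etv5* was also lost without replicate 2 at day 21. Without replicate 3 at day 21, *Spry1* was called as well (log2 fold change -0.60, edgeR adjusted p = 0.0389). *Dusp4* kept 11.8, 11.3 and 12.6 CPM at day 21, which overlapped its day 6 range (log2 fold change -0.27, SE 0.15, edgeR adjusted p = 0.264).

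After 1 round, described only, the day 21 libraries were all below the day 6 libraries for 7 of the 10 genes, in a contrast where this held for 25.5% of all genes, and all above for *Spry2*. *Spry1* was among the lower ones, at 11.1, 18.7 and 14.7 CPM at day 21. *Dusp4* was another, at 7.58, 9.32 and 9.24 CPM.

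Day 21 HSCs after 3 rounds of 5-FU were also set against HSCs at day 6 after 3 rounds of PBS, the latest PBS group. This comparison shares its PBS libraries with the day 6 comparison and with that of old HSCs. By edgeR, 0 of the 10 genes passed, where 0.0475% of the 12632 genes did. At an unadjusted p of 0.05, 2 passed, against 13.7% of all genes, and DESeq2 called 0, against 4.69% of all genes. *Etv4*, *Etv5* and *Dusp4* had day 21 libraries that were all above the PBS libraries, 3 of 10 genes against 11.0% of all genes. Their log2 fold changes were 2.41 for *Etv4* (SE 1.44, edgeR adjusted p = 0.521, from 1.83 to 6.46 with 1 library left out, the highest without PBS replicate 3), 0.51 for *Etv5* (SE 0.15, edgeR adjusted p = 0.245) and 0.39 for *Dusp4* (SE 0.12, edgeR adjusted p = 0.246). After 1 round, the day 21 libraries were all above the PBS libraries for *Etv5*, *Spry2* and *Dusp4*, 3 of the 9 genes kept by the filter, against 10.3% of all genes.

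At day 21, 3 rounds of 5-FU against 1 round gave 0 of 10 genes by edgeR, where 0.00802% of the 12474 genes passed. *Dusp4* alone had an unadjusted p under 0.05 (log2 fold change 0.44, SE 0.15, edgeR adjusted p = 0.692), against 5.92% of all genes, and DESeq2 called 0 of 10 and 1.29% of all genes. The groups did not overlap for *Etv4*, at 1.10 to 2.80 against 0 to 0.951 CPM, and for *Dusp4*, at 11.3 to 12.6 against 7.58 to 9.32 CPM. These were 2 of the 10 genes, against 6.65% of all genes.

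Old HSCs were compared with HSCs after 3 rounds of PBS, the older of the PBS groups. None of the 10 genes passed by edgeR (0 of 10, against 0.996% of the 12847 genes). However, 5 had an unadjusted p under 0.05, against 11.2% of all genes, and DESeq2 called 2, *Etv5* (adjusted p = 0.0441) and *Spred1* (adjusted p = 0.00574), against 4.43% of all genes. *Spred1* stood at 41.3, 35.9 and 32.0 CPM in old HSCs, below all 18 other libraries, and its log2 fold change was -0.51 (SE 0.12, edgeR adjusted p = 0.121). *Spry1*, at 21.8, 16.2 and 16.2 CPM, was also below the 3 PBS libraries, so that 2 of 10 genes were lower without overlap, against 8.49% of all genes. *Etv5*, *Dusp4*, *Dusp6* and *Spred2* were higher without overlap, 4 of 10 genes against 8.44% of all genes, with *Dusp6* at 34.1, 35.5 and 40.6 CPM. Old HSCs differ from the PBS group in injection and handling as well as in age, and these cannot be told apart.

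Over the 21 libraries, *Etv5* was the member with the highest Pearson correlation with *Etv4* (r = 0.863 on log2(CPM + 1)), followed by *Spry4* at 0.785 and *Dusp4* at 0.740. *Spry2* had the lowest value, at -0.164. *Etv5* and *Dusp4* gave 0.836, and *Spry1* and *Dusp4* gave 0.758. The 21 points fall into 7 groups of 3 libraries, and no test was made on them. Among all 12044 genes with a mean of at least 1 CPM, the closest to *Etv4* were *Hnrnpa1* (0.950), *Hnrnpab* (0.946), *Actr2* (0.941), *Mospd3* (0.939) and *Rnf168* (0.937). *Hnrnpa1* has near-identical pseudogenes, and how its reads were assigned is uncertain. *Etv5* stood at rank 181 in this order, *Spry4* at rank 612 and *Dusp4* at rank 951. The order changed with Spearman's rho, by which *Dcakd* was first (0.883), *Hnrnpa1* stood at rank 330 and *Hnrnpab* at rank 706, and *Dusp4* (0.766) stood above *Etv5* (0.759).

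**Figure D3:**
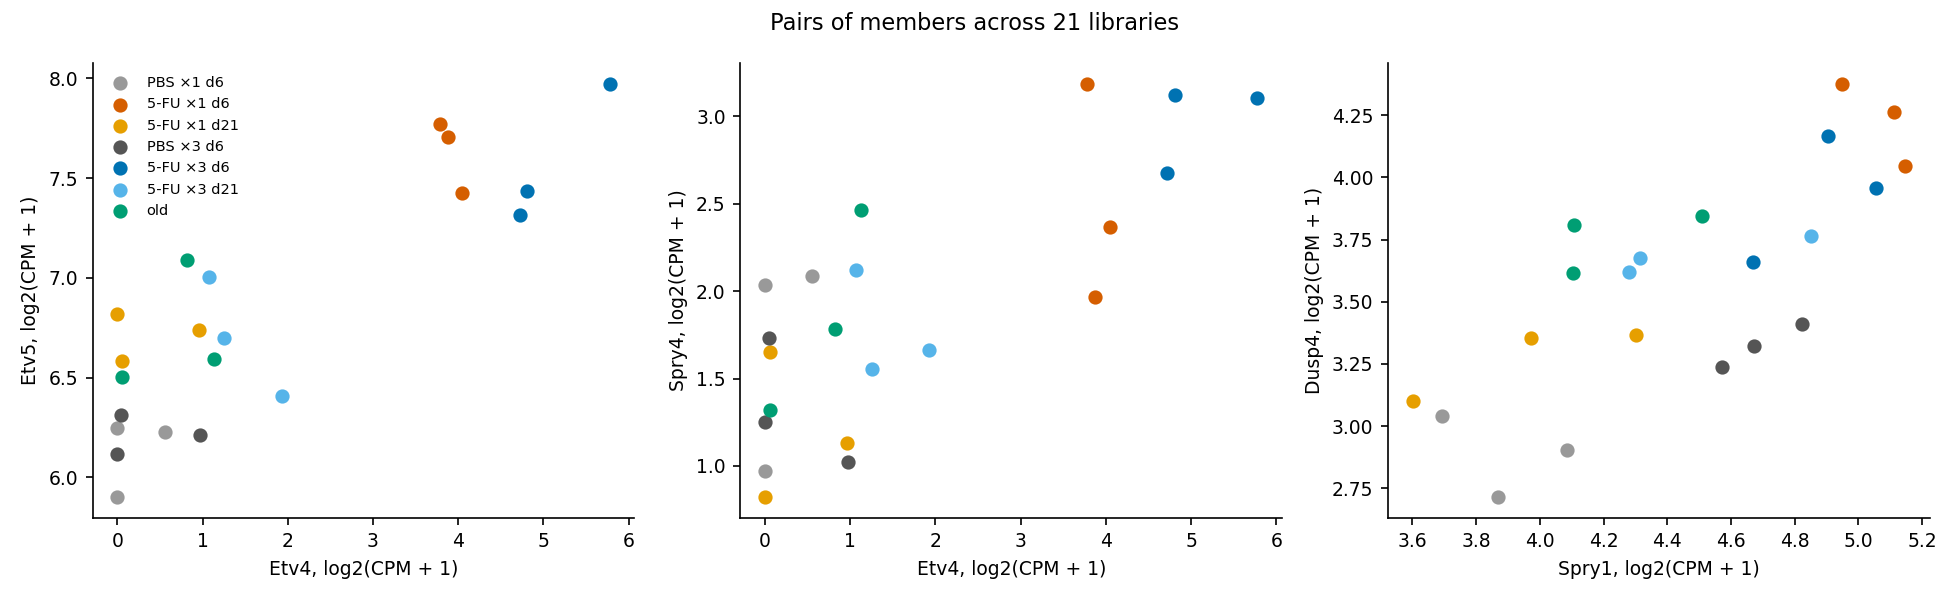
Log2(CPM + 1) of *Etv4* against *Etv5* and *Spry4*, and of *Spry1* against *Dusp4*, with 1 point for each of the 21 libraries, colored by group. The 6 day 6 5-FU libraries stand apart from the other 15 along the *Etv4* axis, and the *Spry1* and *Dusp4* values of the PBS groups separate by the number of rounds.

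The other genes of the pathway were read in the comparison of 5-FU with PBS at day 6 after 3 rounds. There, 18.1% of all genes passed by edgeR and 26.4% by DESeq2. The share of all genes at an unadjusted p is not given here, so that counts at that threshold cannot be weighed. Of the remaining PEA3, Sprouty and Spred genes, *Etv1* and *Spred3* were measured. By edgeR, 0 of these 2 passed, also at an unadjusted p of 0.05 and by DESeq2. *Etv1* had 2.31 ± 0.346 CPM after 5-FU and 0.891 ± 1.06 CPM after PBS. Of 6 other MAP kinase phosphatase genes tested, 1 rose and none fell: *Dusp7*, another cytoplasmic ERK phosphatase, by 0.74 (SE 0.12, edgeR adjusted p = 0.00980). Of 7 genes for the CIC repressor and the COP1 ligase, 0 passed by edgeR, with 2 at an unadjusted p of 0.05 and 2 by DESeq2. *Cic* itself stood at 33.2 ± 1.89 CPM after 5-FU and 36.3 ± 1.49 CPM after PBS (edgeR adjusted p = 0.257).

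Of 29 genes of the RAS to ERK cascade, 2 rose and 1 fell, where 18.1% of all genes passed, and with any 1 library left out 1 or 2 passed. *Hras* rose by 0.34 (edgeR adjusted p = 0.0302), and the RAS-related gene *Rras* fell by 1.20 (edgeR adjusted p = 0.00399). Of 14 receptors upstream of ERK, none rose and 6 fell, and with any 1 library left out 5 or 6 passed, with a median log2 fold change of -0.49 over the list. *Pdgfrb*, a receptor for platelet-derived growth factor, fell by 1.64 (edgeR adjusted p = 0.0231) and *Flt3*, the FLT3 ligand receptor, by 1.18 (edgeR adjusted p = 0.0120). *Kit*, named here because the sort gate was set on its protein, as it was on that of *Flt3*, was among the 6, at 757 ± 25.6 CPM after 5-FU and 1012 ± 55.3 CPM after PBS. *Kit* also belonged to the HSC marker list, and *Pdgfrb* to the stromal one.

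Of 15 other genes known to be induced by ERK, 3 rose and 3 fell, and 2 passed without replicate 3 of the 5-FU group or without replicate 1 of the PBS group. *Ccnd1*, which encodes cyclin D1, rose by 1.97 (SE 0.20, edgeR adjusted p = 0.00265), from 19.6 ± 3.86 to 78.0 ± 16.9 CPM. *Fosl1*, which encodes a FOS-family subunit of AP-1, rose by 1.93 (edgeR adjusted p = 0.0201) and the immediate early gene *Egr1* by 0.84 (edgeR adjusted p = 0.0187). *Ier3* fell by 0.62 (edgeR adjusted p = 0.0232) and *Junb* by 0.60 (edgeR adjusted p = 0.0273). *Epha4* was the other gene that fell, from 1.79 ± 1.14 CPM to a level near 0 (0.00944 ± 0.0164 CPM). Of 14 other ETS factor genes, 0 passed by edgeR, with 4 at an unadjusted p of 0.05 and 3 by DESeq2, which called 26.4% of all genes.

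**Figure D4:**
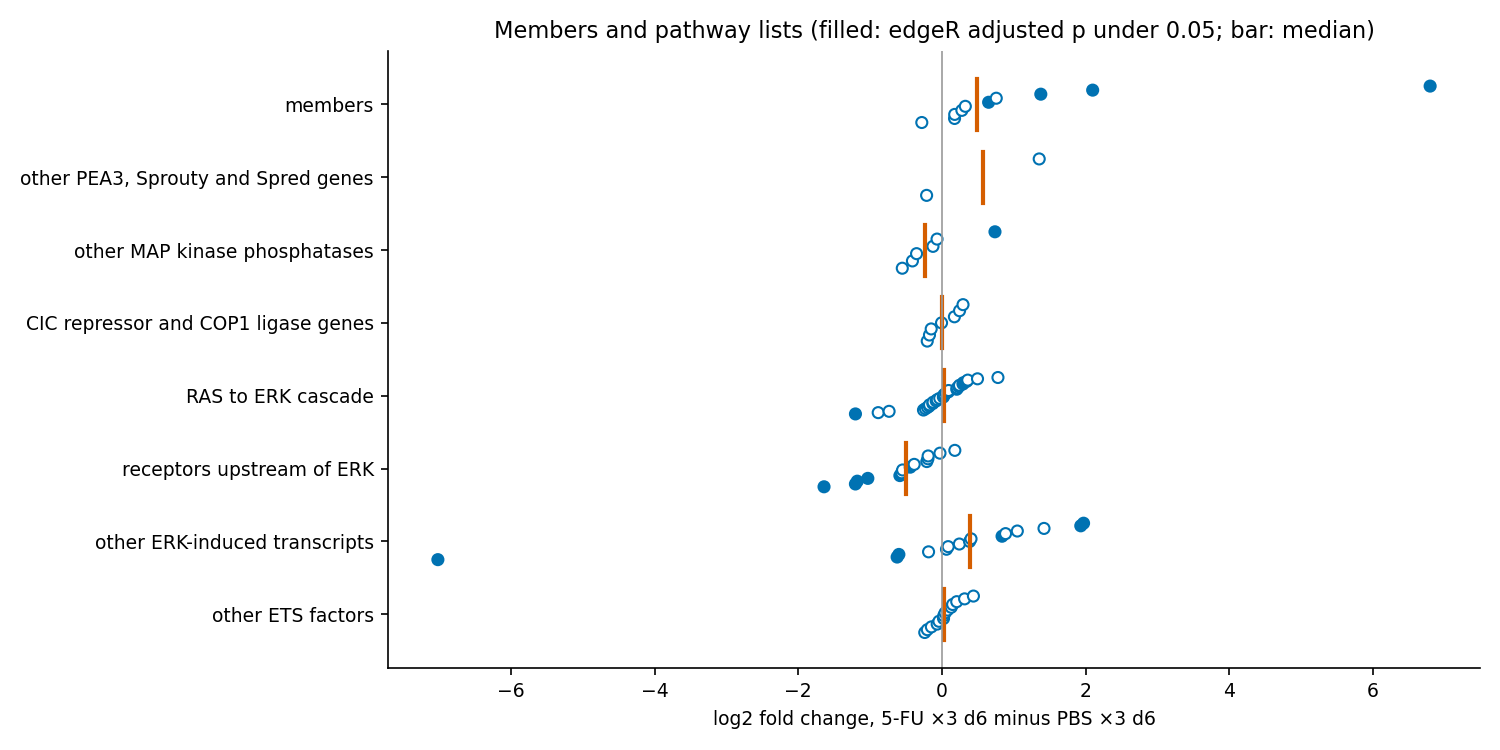
Log2 fold change between 3 rounds of 5-FU and 3 rounds of PBS at day 6 for the 10 genes and for each pathway list (1 point a gene, vertical bar for the list's median, filled for an edgeR adjusted p under 0.05). The 6 filled receptor genes lie below 0, and the far left point is *Epha4*, whose fitted value depends on a near-zero level and is no measure of its size.

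Day 21 was also set against day 6 after 3 rounds for these lists, a comparison that shares its day 6 libraries with that of 5-FU and PBS, so that the signs in the one are not independent of those in the other. Among the 14 receptors, 6 rose and none fell, among them *Flt3* by 0.95, *Insr* by 0.73 and *Csf3r* by 0.72. *Ccnd1* fell by 1.39, *Plaur* by 0.94 and *Fos* by 0.88 among the other genes induced by ERK, whereas *Junb* rose by 0.69 and *Ier3* by 0.66. *Dusp2*, a nuclear phosphatase, rose by 0.40. Of the 29 cascade genes, 3 rose, with *Rras* by 1.02, and 2 fell, with *Rps6ka3* by 0.50. *Fli1* rose by 0.28 among the 14 other ETS genes. All of these passed an edgeR adjusted p of 0.05, where 19.5% of all genes did. With any 1 library left out, 0 to 2 cascade genes passed, and the counts were 0 or 1 for the other phosphatases, 0 for the other ETS genes and 3 to 5 for the genes induced by ERK, the 3 without replicate 3 at day 6. In the comparison of old HSCs, *Cop1* fell by 0.89 (edgeR adjusted p = 0.0176), from 93.5 ± 10.8 to 50.6 ± 3.35 CPM. It was the 1 gene called of the 7 genes for the CIC repressor and the COP1 ligase, and *Flt3*, which fell by 1.22 (edgeR adjusted p = 0.00799), the 1 called of the 14 receptors, where 0.996% of all genes passed. *Cop1* was lost without any 1 of the old libraries or without PBS replicate 3, and *Flt3* without old replicate 1 or 2. In the day 21 comparisons with PBS and between rounds, edgeR called 0 genes of the 7 lists. At an unadjusted p of 0.05, 0 to 6 genes of a list passed against PBS and 0 to 7 between rounds, where 13.7% and 5.92% of all genes did. The highest counts were 6 of 14 receptors against PBS and 7 of 12 other genes induced by ERK between rounds. DESeq2 called 0 to 4 genes of a list in each, where it called 4.69% and 1.29% of all genes. The 4 were of the receptors against PBS and of the genes induced by ERK between rounds.

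The sequence around the start of these genes was also examined. RefSeq windows of 250 bases before to 50 bases after the gene start (GRCm38.p6) were at hand for 7 of the 10 genes, in 8 windows. Of the 4 genes that passed the test at day 6, *Etv5* alone was searched. Windows of *Etv4*, *Spry4* and *Dusp4* were not used, so that the search says nothing on them. The CIC octamers TGAATGAA and TCAATGAA, the AP-1 site TGANTCA, the cyclic AMP response element TGACGTCA and the PEA3 site AGGAAGT were searched on both strands. A match was found in 4 windows. The share of all windows with a match to any of these motifs is not given, so that this count cannot be weighed. Over all 32851 RefSeq windows, the shares with a match were 1.303%, 0.7488%, 7.808%, 1.79% and 9.351%, in the order given. *Spry2*, whose level did not pass the test, was the 1 gene with a CIC octamer, TCAATGAA on the other strand, 54 bases before its start. AGGAAGT was found in *Dusp5*, in *Spred2* and in the second window of *Etv5*, where it lay after the start. The bases before the annotated start are shown for *Etv5*, which rose and had no match in its first window (chr16:22439720-22439820, minus strand), and for *Spry2* (chr14:105896820-105897069, minus strand), with the octamer in capitals.
Etv5: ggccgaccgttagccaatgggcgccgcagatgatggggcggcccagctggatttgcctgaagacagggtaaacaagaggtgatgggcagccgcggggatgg
Spry2: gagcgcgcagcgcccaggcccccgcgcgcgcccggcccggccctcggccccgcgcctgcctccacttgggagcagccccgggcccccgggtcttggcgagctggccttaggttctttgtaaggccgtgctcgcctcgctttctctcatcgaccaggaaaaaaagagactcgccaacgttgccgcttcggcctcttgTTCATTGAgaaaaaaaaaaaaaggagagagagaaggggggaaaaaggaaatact

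By GENCODE vM21 on GRCm38, *Etv4* lies on the minus strand of chromosome 11 (chr11:101769742-101785371) and *Etv5* on that of chromosome 16 (chr16:22381309-22439719). *Dusp4* lies on the plus strand of chromosome 8 (chr8:34807297-34819894) and *Spry1* on that of chromosome 3 (chr3:37639947-37644598). *Spry1* and *Dusp5* were the members with exonic bases shared with another annotated gene.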

How the data were processed

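Total RNA of sorted HSCs was amplified with SMART-Seq v4, made into libraries with Nextera XT and sequenced as single-end reads. According to the methods and the submitters' processing notes, reads were mapped with TopHat2 2.0.13 to mm10 and analysed with Cuffdiff of Cufflinks 2.2.1. The deposited values are whole-number counts per gene, not normalized; the program that counted them is not given in the sources used here. The deposited column names of the 6 libraries given PBS or 5-FU 1 time and taken at day 6 carry a suffix that the others lack.

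Each comparison was fitted on the 6 libraries of its 2 groups with edgeR 4.0.16 in R 4.3.3: filterByExpr, TMM, glmQLFit, glmQLFTest and Benjamini-Hochberg adjustment over all genes kept, with a threshold of 0.05. CPM used TMM over all 21 libraries. SE is the log2 fold change divided by the square root of F. The code was tested on simulated data. Alternatives were DESeq2 1.42.0, other size factors, no normalization factor, no filter, a fit of all 21 libraries, a replicate block and leaving out each library in turn. The genes and lists were chosen with earlier results of these data known. Named genes were the 10 members, the 5 genes closest to *Etv4*, and, of each list, up to 3 called genes in each direction with the largest change; *Kit*, *Cic*, *Etv1* and *Spred3* were named after their values were seen. Some listed genes are not reported here by name.

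No library was a copy of another of its group: within groups, the variance between libraries was 16.8 to 37.3 times that of sampling noise. Pairs from different groups were not examined in this way. Samples are described as independent experiments, and the p-values measure the spread between these samples. Of promoter windows, those of *Etv4*, *Dusp4* and *Spry4* were not used here.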

Additional observations from a re-analysis of the deposited data

How the results depend on the processing

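With 3 libraries a group, small changes could not be resolved. *Etv4* was low in PBS-treated, day 21 and old HSCs, at 0 to 75 counts a library against a floor of 3 counts. Of the log2 fold changes of the 10 genes under the alternatives, 929 kept their direction and their side of the threshold or, where no test was made, moved by less than the spread. In the tested comparisons, 15 lost a call, 8 gained one and 14 changed sign. Where no test was made, 14 moved by more than the spread. Changes of sign were not counted there, although some occurred. *Spred2*, for 5-FU against PBS at day 6 after 1 round, ran from -0.012 to 0.33 with 1 library left out. After 3 rounds at day 6, DESeq2 called 7 of the 10 genes in place of 4. From day 6 to day 21, leaving out 1 library gave 1 to 4 genes in place of 3. In old HSCs, DESeq2 called 2 and the fit of all 21 libraries called 1 (*Spred1*), in place of 0. The causes were not tested.

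Of the values whose sign changed in the tested comparisons, none had passed the threshold, and most changed sign when 1 library was left out. For day 21 after 3 rounds against PBS, the leave-one-out values ran from -0.013 to 0.32 for *Spry2* and from -0.074 to 0.095 for *Spred1*. For day 21 after 3 rounds against 1 round, they ran from -0.16 to 0.14 for *Etv5*, from -0.13 to 0.20 for *Spry2* and from -0.040 to 0.66 for *Spred2*. *Etv5* also gave -0.0056 with RLE size factors, -0.0055 with DESeq2 and -0.015 with the replicate block there. In old HSCs, they ran from -0.22 to 0.089 for *Spry2* and from -0.21 to 0.11 for *Dusp5*.

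Without a normalization factor, the median over all genes shifted by -0.0997 (5-FU against PBS, day 6, 3 rounds) and by 0.109 (day 21 against day 6), and calls split into 807 higher and 1462 lower in place of 1253 and 1057, and into 1701 and 977 in place of 1089 and 1361. For all genes, edgeR and DESeq2 called 6 and 592 at day 21 against PBS, 1 and 161 at day 21 between rounds and 128 and 569 in old HSCs; the fit of all 21 libraries called 185, 16 and 179. The replicate numbers did not pair the libraries: same-numbered libraries had correlations of -0.0499 to 0.0578, and 0 to 3 of 6 libraries correlated best with their own number. With the block, all-gene calls were 1509 for 5-FU against PBS at day 6, 2071 for day 21 against day 6, 0 in both other day 21 comparisons and 30 in old HSCs, and 3 of the 10 genes were called at day 6 after 3 rounds.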
